A study of Homo sapiens with 15 samples.

Results

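The genes described here are 10 components of the circadian clock, PER1, PER2, PER3, CRY1, CRY2, NR1D1, NR1D2, BHLHE40, DBP and TEF. They were taken by symbol from a count table of 60670 genes, and each symbol matched 1 row. The list was chosen by measured values of these same libraries, and it is not recorded which of them (levels or changes, in which comparison), so every comparison here counts as used in that choice. The log2 fold changes, standard errors (SE) and adjusted p-values of these 10 genes are therefore given as a description of the fit over all genes and support nothing by themselves.

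The study sequenced RNA from HT-1080, an established human fibrosarcoma cell line grown in medium with tetracycline-free serum at low oxygen. There were 15 libraries in 5 groups of 3. The cycling group was given DMSO, the vehicle, and carries the 6 h label. The other 4 groups were senescent cells that had expressed a dominant negative mutant of TRF2, a telomere-binding protein, for 6 days, and then received DMSO for 6 h, 1 uM GNF-7 for 6 h, DMSO for 24 h or 1 uM GNF-7 for 24 h. GNF-7 is a tyrosine kinase inhibitor, which the study's title links to senescent cells and to the kinase GCN2. There was no cycling group with GNF-7 or at 24 h, and the labels do not say whether cycling cells carried the TRF2 construct uninduced. The titles call the 3 libraries of a group biological replicates, all from 1 cell line, without saying how the cultures were kept apart.

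In the mammalian clock, the activators CLOCK (or NPAS2) and BMAL1 bind E-box sequences and switch on their own repressors. PER and CRY proteins accumulate, enter the nucleus and shut that activation off, and they are then degraded. Another loop links BMAL1 to the REV-ERB repressors (genes NR1D1 and NR1D2) and the ROR activators, and a further one uses D-box sequences, which the activators DBP and TEF and the repressor NFIL3 share. BHLHE40 (DEC1) competes for E-boxes. Many cultured cell lines keep such clocks, but their cells drift out of phase with each other unless a stimulus such as fresh serum aligns them. Whether HT-1080 cells keep a running clock was not tested here.

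Library totals ranged from 25991007 to 32323393 counts, and the rarest of the 10 genes in any library, DBP, had 150 counts. Values are CPM, counts scaled to a common library size after adjustment by the trimmed mean of M-values (TMM), each with the SD over 3 libraries where a ± is given. Where ranges of groups are said to be apart, the share of all genes with such ranges is not given. Ranges apart thus describe the libraries and show nothing particular to the clock genes. The share of counts from mitochondrial genes ranged from 3.75% to 5.01% in cycling libraries, from 11.2% to 12.4% in senescent vehicle libraries at 6 h and from 13.2% to 15.3% with GNF-7 at 6 h. At 24 h it ranged from 15.1% to 18.7% in vehicle and from 22.6% to 24.1% with GNF-7. Leaving these genes out of the library sizes gave 9, 7, 7 and 6 of the 10 clock genes called in the senescence, GNF-7 6 h, GNF-7 24 h and vehicle time comparisons, the same counts as with them. In GNF-7 at 24 h against 6 h, which includes the group with the highest mitochondrial share, the count was 6 in place of 7, since CRY2 was no longer called (0.17, edgeR adjusted p 0.0702). As a check of the line, 7 of 8 mesenchymal markers had group means of at least 58.0 CPM, while S100A4 was at 2.75 CPM or less. The epithelial genes KRT8 and KRT18 were also present, at 145 CPM or more, whereas the defining epithelial markers EPCAM and CDH1 did not exceed 0.0852 CPM and the 5 blood markers did not exceed 0.498 CPM in any group mean. The other epithelial markers listed, KRT19 and CLDN4, did not exceed 0.32 and 1.75 CPM, and CLDN4 was called higher with GNF-7 at 24 h (1.02). The 3 endothelial markers did not exceed 0.926 CPM, and VWF among them was also called higher there (1.64).

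The promoter sequences of the genes are shown first, because the loops described above act through short motifs in them. RefSeq's promoter table (GRCh38.p14; 250 bases before to 50 after a gene's start) held 14 windows for the 10 genes. Each was searched on both strands for CACGTG (the canonical E-box), for TTANNTAA with a pyrimidine and then a purine in the middle (D-box), for CACGTT (a variant E-box, added after the sequences had been seen) and for AGGTCA, the core of sites for ROR and REV-ERB proteins. The E-box was present in windows of 4 of the 10 genes, PER1, NR1D2, BHLHE40 and TEF, against 8.77% of 27305 genes in the table. The D-box was present in windows of 3, PER2, PER3 and NR1D2, against 1.79% of genes. CACGTT was present in PER2, CRY1, CRY2 and NR1D1 (6.44% of genes), and AGGTCA in PER1 and CRY2 (16.5%). The DBP window held none of the 4 motifs. These are matches of letters and not tests of binding.

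Windows without a match, such as those of DBP and the first of NR1D2, are not shown, and AGGTCA is left in lower case. The 5 windows below are examples with matches to the E-box, the D-box or CACGTT, which are in capitals. They are PER1 (chr17:8152355-8152654, minus strand), with its E-box beginning at position -173 (bases from the start site, negative before it), and PER2 (chr2:238288561-238288860, minus strand), with CACGTT at -197 and a D-box at -3. PER3 (chr1:7784041-7784340, plus strand) has D-box matches at -177 and -136. The second NR1D2 window (chr3:23945871-23946170, plus strand) has a D-box at -194 and E-boxes at -155 and -105, and BHLHE40 (chr3:4979187-4979486, plus strand) has an E-box at -245.
PER1: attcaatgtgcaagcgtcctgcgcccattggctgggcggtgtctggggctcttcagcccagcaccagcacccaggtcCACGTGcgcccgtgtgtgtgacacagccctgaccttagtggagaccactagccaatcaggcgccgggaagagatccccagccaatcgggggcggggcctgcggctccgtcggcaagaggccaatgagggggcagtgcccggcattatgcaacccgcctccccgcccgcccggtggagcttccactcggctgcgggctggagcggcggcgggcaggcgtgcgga
PER2: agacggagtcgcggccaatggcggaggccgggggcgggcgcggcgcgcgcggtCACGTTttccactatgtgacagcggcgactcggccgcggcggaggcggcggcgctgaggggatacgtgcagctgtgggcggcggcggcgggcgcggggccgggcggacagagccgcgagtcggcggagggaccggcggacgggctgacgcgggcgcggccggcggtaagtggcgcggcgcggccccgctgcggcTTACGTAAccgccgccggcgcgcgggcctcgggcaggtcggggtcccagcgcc
PER3: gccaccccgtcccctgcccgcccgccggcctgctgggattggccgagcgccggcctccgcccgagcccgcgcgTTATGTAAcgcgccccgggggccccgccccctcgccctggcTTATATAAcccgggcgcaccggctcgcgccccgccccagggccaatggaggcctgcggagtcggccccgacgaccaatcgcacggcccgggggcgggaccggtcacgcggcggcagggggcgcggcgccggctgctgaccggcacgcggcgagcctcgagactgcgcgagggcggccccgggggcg
NR1D2: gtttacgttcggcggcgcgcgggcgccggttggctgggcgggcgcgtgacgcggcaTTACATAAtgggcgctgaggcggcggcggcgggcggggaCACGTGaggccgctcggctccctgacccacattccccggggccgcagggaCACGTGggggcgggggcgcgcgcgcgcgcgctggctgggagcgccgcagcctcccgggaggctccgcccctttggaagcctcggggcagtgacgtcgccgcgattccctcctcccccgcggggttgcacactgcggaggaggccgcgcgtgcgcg
BHLHE40: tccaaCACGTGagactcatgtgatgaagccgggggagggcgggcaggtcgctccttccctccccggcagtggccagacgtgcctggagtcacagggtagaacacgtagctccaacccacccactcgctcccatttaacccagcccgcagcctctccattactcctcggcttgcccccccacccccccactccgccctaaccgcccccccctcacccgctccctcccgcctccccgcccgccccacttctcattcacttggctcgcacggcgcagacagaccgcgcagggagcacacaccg

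All 10 genes passed the filter on low counts. Levels of different genes were compared as CPM per kilobase of annotated exon (GENCODE release 29, whose exon models may differ from those the authors counted on). On that scale NR1D2 was highest in cycling cells at 17.3 ± 0.615, followed by BHLHE40 at 11.4 ± 0.223 and CRY1 at 5.78 ± 0.298. PER1, at 1.20 ± 0.0306, and DBP, at 0.865 ± 0.0648, were lowest. The annotated exons of DBP merge into 2 blocks of 6544 bases, most of its span from 48630030 to 48637438. Its low rank therefore depends on that exon model, and a shorter transcript would give a higher value per kilobase. In senescent vehicle cells at 6 h BHLHE40 was highest at 20.4 ± 0.776 per kilobase, above NR1D2 at 11.04 ± 0.239 and NR1D1 at 7.57 ± 0.236. The order thus differed between groups, with the transcriptional repressors of the accessory loops above the PER and CRY genes in the senescent cells.

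**Figure D1:**
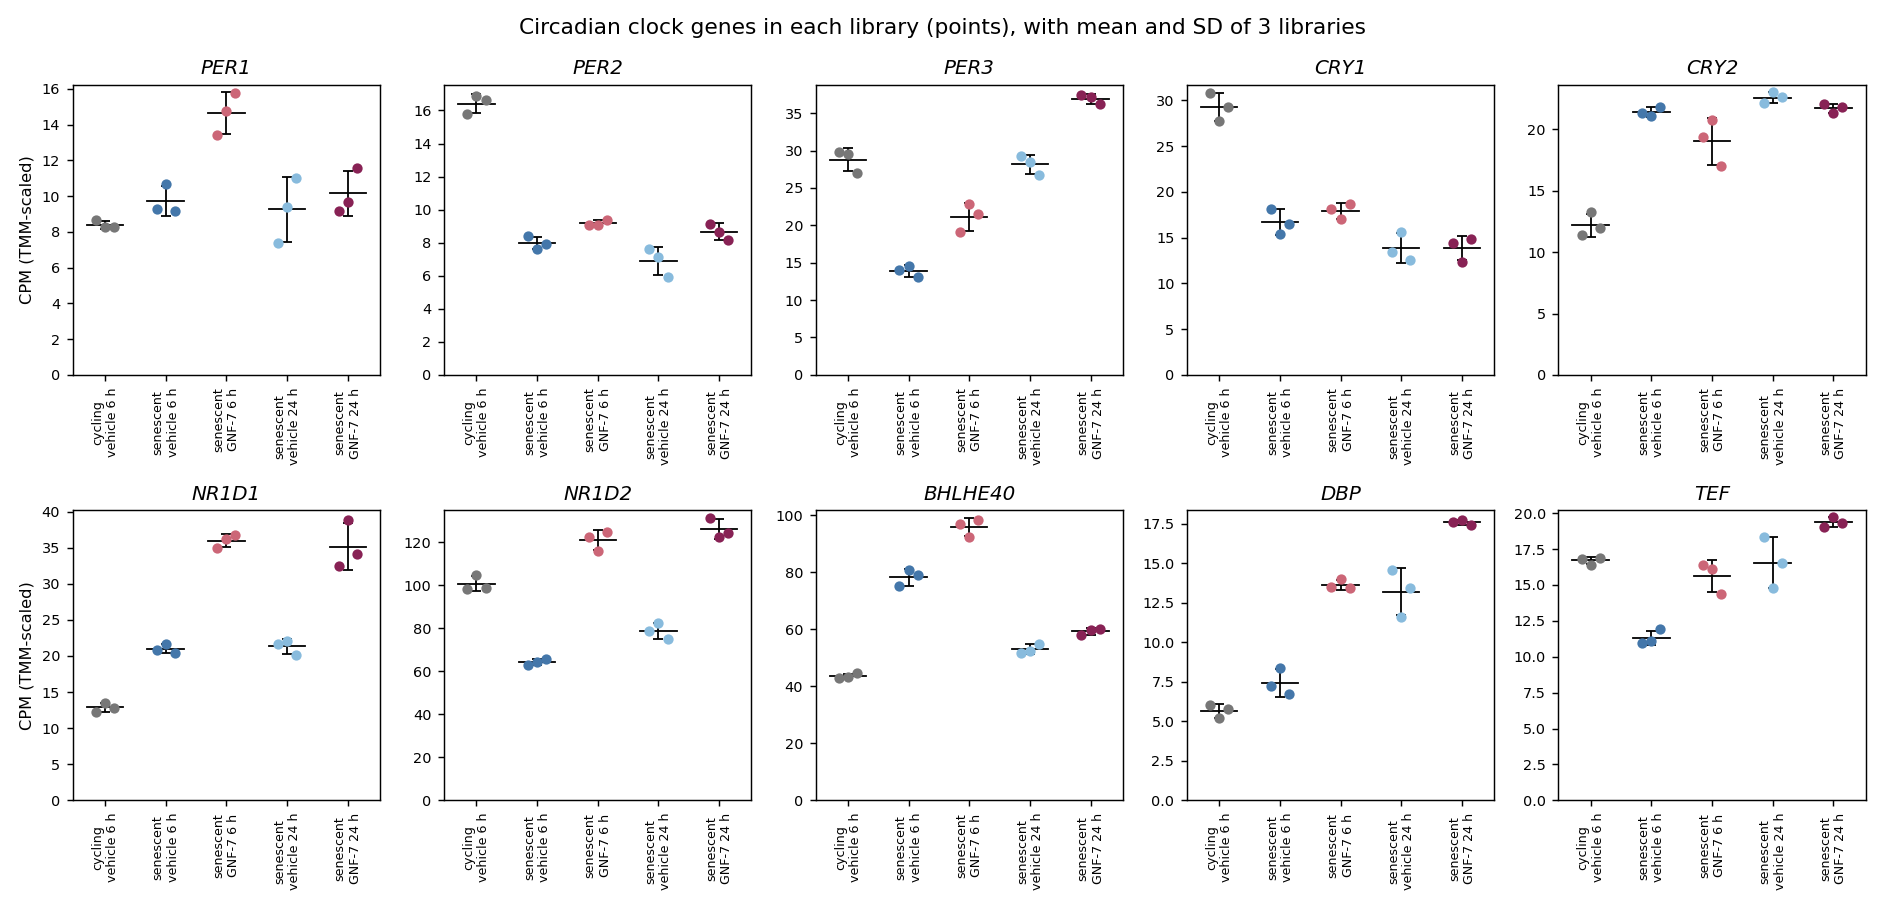
Each panel shows 1 clock gene, with CPM on the y axis and the 5 groups on the x axis. Points are libraries, horizontal lines are means and bars are SDs of 3 libraries. PER2 and CRY1 are highest in cycling cells, NR1D1 and NR1D2 are highest in the GNF-7 groups, and PER3, DBP and TEF are higher at 24 h than at 6 h in vehicle.

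The first comparison asked how the clock genes differed between senescent and cycling cells in vehicle at 6 h. The change was split. PER2, PER3, CRY1, NR1D2 and TEF were lower in senescent cells, and CRY2, NR1D1, BHLHE40 and DBP were higher. Of the 10, 9 were called (edgeR adjusted p under 0.05), 4 higher and 5 lower, where 70.0% of all 18563 genes tested were called, 35.6% higher and 34.4% lower. The median log2 fold change was -0.17 over the 10 genes and 0.06 over all genes. In a fit of only genes with a mean of at least 5 CPM, 82.0% were called, as were all 10 clock genes. Scaling by total counts alone shifted the median of all genes to 0.20, and PER1 was then also called higher. In bulk RNA a change in the number of cells that express a gene and a change in RNA per cell cannot be told apart.

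Among the PER genes, which encode the repressors that carry the CRY proteins into the nucleus, PER2 (ENSG00000132326, GRCh38 chromosome 2, 238244038 to 238290102, minus strand) stood at 15.8, 16.9 and 16.6 CPM in cycling libraries and at 8.38, 7.64 and 7.91 CPM in senescent ones. The lowest cycling library lay above the highest senescent library, with a log2 change of -1.04 (SE 0.104, edgeR adjusted p 1.07e-13). PER3 (ENSG00000049246, chromosome 1, 7784320 to 7845177, plus strand) fell similarly, from 29.8, 29.5 and 27.0 CPM to 14.1, 14.6 and 13.1 CPM (log2 change -1.05, SE 0.074, edgeR adjusted p 9.33e-20). It overlaps the gene UTS2 on the other strand over 868 exon bases, but UTS2 had at most 3 counts in any library. PER1 (ENSG00000179094, chromosome 17, 8140472 to 8156506, minus strand), the PER gene known for its rapid induction by external signals, was at 8.26 to 8.65 CPM in cycling and 9.19 to 10.7 CPM in senescent cells. Its ranges did not overlap, yet the log2 change of 0.21 (SE 0.117) was not called (edgeR adjusted p 0.099). It was called in a fit of only these groups (0.27), with genes kept from a mean of 5 CPM up (0.36) and with total counts (0.35).

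The CRY genes encode the cryptochromes, the stronger repressors of CLOCK and BMAL1, and they moved in opposite directions. CRY1 (ENSG00000008405, chromosome 12, 106991364 to 107093829, minus strand) fell from 30.8, 27.8 and 29.2 CPM to 18.2, 15.4 and 16.5 CPM, a log2 change of -0.81 (SE 0.082). CRY2 (ENSG00000121671, chromosome 11, 45847118 to 45883248, plus strand) rose from 11.38, 13.25 and 11.95 CPM to 21.4, 21.1 and 21.8 CPM, a log2 change of 0.81 (SE 0.082). The ranges were apart for both genes. In cycling cells CRY1 was the higher per kilobase of exon (5.78 against 1.97 CPM), and in senescent vehicle cells at 6 h the 2 genes were at 3.30 ± 0.273 and 3.46 ± 0.0645 CPM per kilobase, closer than the SD of CRY1.

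The REV-ERB genes also diverged. NR1D1 (ENSG00000126368, chromosome 17, 40092787 to 40100725, minus strand) rose from 12.3, 13.5 and 12.9 CPM to 20.9, 21.7 and 20.4 CPM (log2 change 0.70, SE 0.077). NR1D2 (ENSG00000174738, chromosome 3, 23945260 to 23980618, plus strand) fell from 98.4, 104.8 and 98.9 CPM to 62.8, 64.3 and 65.6 CPM (-0.65, SE 0.045). NR1D1 shares 263 exon bases, 9.49% of its exons, with THRA on the other strand, a thyroid hormone receptor gene with 565 to 1230 counts per library, and it is not given whether counting used strand. THRA itself was at 23.0 CPM in cycling and 24.4 CPM in senescent cells on average and was not called (0.08, edgeR adjusted p 0.283).

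BHLHE40 (ENSG00000134107, chromosome 3, 4979116 to 4985323, plus strand), the E-box repressor also known as a hypoxia and stress response gene, rose from 43.0, 43.3 and 44.6 CPM to 75.0, 80.9 and 79.0 CPM, a log2 change of 0.84 (SE 0.048, edgeR adjusted p 6.07e-24). Of the D-box activators, DBP (ENSG00000105516, chromosome 19, 48630030 to 48637438, minus strand) rose from 6.03, 5.20 and 5.75 CPM to 7.22, 8.40 and 6.69 CPM (0.40, SE 0.115). TEF (ENSG00000167074, chromosome 22, 41367333 to 41399326, plus strand) fell from 16.8, 16.4 and 16.9 CPM to 10.99, 11.08 and 11.90 CPM (-0.56, SE 0.088). DBP shares 661 exon bases, 10.1% of its exons, with SPHK2 on the other strand, a gene of 865 to 1403 counts per library that was itself called higher (0.42). The part of SPHK2 in the DBP value was not tested.

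**Figure D2:**
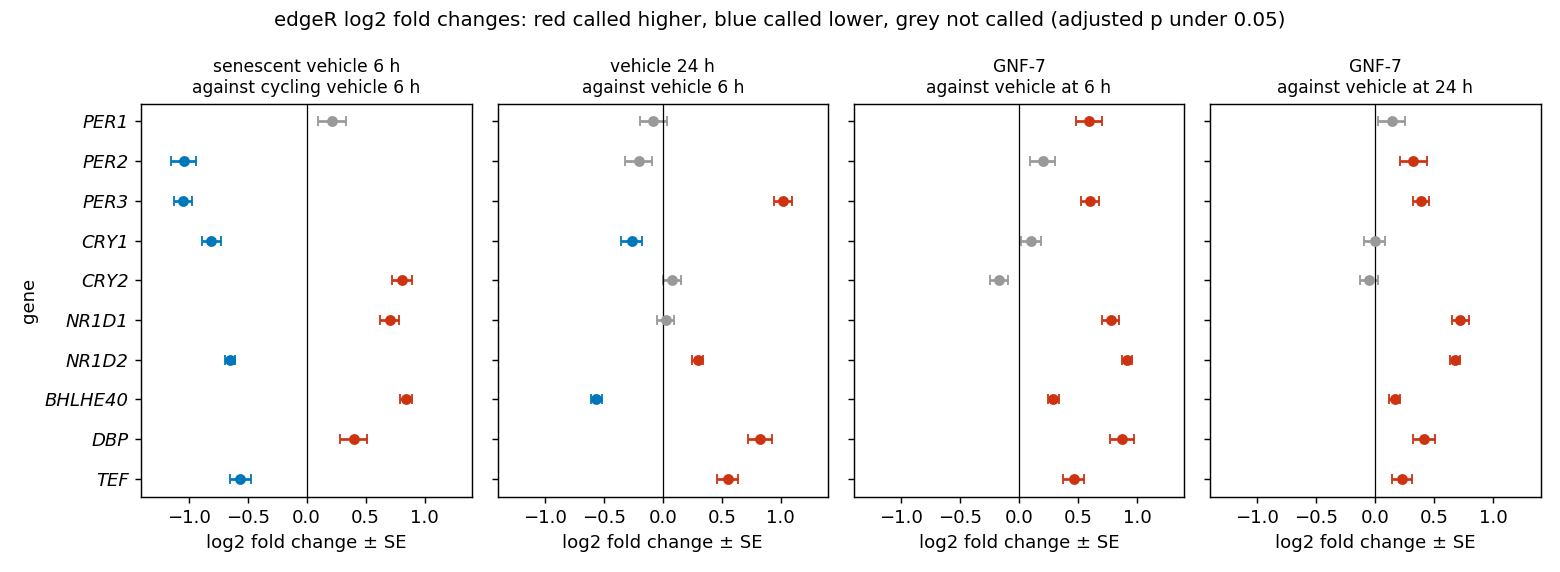
Points are log2 fold changes (x axis) and bars are SEs from the edgeR fit for the 10 genes (y axis) in 4 comparisons, coloured by call. The senescence panel has 4 genes called higher and 5 lower, the time panel 4 and 2, and each GNF-7 panel 7 higher and none lower.

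Vehicle libraries of senescent cells at 24 h and 6 h were compared next, since a clock gene can differ between collection times without any drug. PER3, DBP, TEF and NR1D2 were higher at 24 h, while BHLHE40 and CRY1 were lower. That made 6 of 10 genes called, 4 higher and 2 lower, against 18.5% of all genes called, 9.26% higher and 9.29% lower. In a fit of only genes with a mean of at least 5 CPM, which holds all 10, the share of genes called was 31.8%. With total counts as the scale 27.0% of all genes were called and 12.5% of the calls in place of 49.9% were higher. The 10 genes then had 4 higher and 3 lower, with PER2 added to those lower (-0.32). Time in vehicle, time since the TRF2 mutant was induced and hour of collection, which the labels do not give, cannot be told apart here, and 2 times show no rhythm.

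PER3 rose the most of the 10, from 14.1, 14.6 and 13.1 CPM at 6 h to 29.3, 28.4 and 26.7 CPM at 24 h, a log2 change of 1.02 (SE 0.074, edgeR adjusted p 4.53e-17). The 24 h libraries were near the cycling ones, whose range of 27.0 to 29.8 CPM they overlapped. DBP rose from 7.22, 8.40 and 6.69 CPM to 14.6, 11.6 and 13.4 CPM (0.83, SE 0.104, edgeR adjusted p 8.46e-09). Its partner in the same protein family, TEF, rose from 10.99, 11.08 and 11.90 CPM to 18.3, 14.8 and 16.6 CPM (0.55, SE 0.088). For both, the 3 libraries at 24 h were above the 3 at 6 h. SPHK2, opposite DBP, was not called (-0.06). NR1D2 rose by less, from 62.8, 64.3 and 65.6 CPM to 78.9, 82.6 and 74.9 CPM (0.30, SE 0.046).

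BHLHE40 fell from 75.0, 80.9 and 79.0 CPM to 51.8, 52.3 and 54.9 CPM, a log2 change of -0.56 (SE 0.048, edgeR adjusted p 1.4e-14). CRY1 fell by a small amount, from 18.2, 15.4 and 16.5 CPM to 13.5, 15.7 and 12.5 CPM (-0.27, SE 0.088, edgeR adjusted p 0.0249). The CRY1 ranges overlapped, and the call was lost in 4 of the fits that left out 1 library, namely on leaving out 6 h vehicle library 1 (-0.20) or 3 (-0.27) of the senescent cells, or 24 h vehicle library 1 (-0.24) or 3 (-0.20). NR1D1 stood at 20.4 to 21.7 CPM at 6 h and 20.2 to 22.1 CPM at 24 h and CRY2 at 21.1 to 21.8 and 22.1 to 23.0 CPM, and neither was called, nor were PER1 (-0.08) and PER2 (-0.20).

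GNF-7 was compared with vehicle in senescent cells at 6 h, with the vehicle libraries that also entered the comparisons with cycling cells and with 24 h. NR1D2, DBP, NR1D1, PER3, PER1, TEF and BHLHE40 rose, and no clock gene was called lower. The count of 7 higher of 10 stood beside 17.9% of all genes called higher, 21.4% lower and 39.3% in either direction. The median was 0.53 over the 10 genes and 0.01 over all genes. PER2, CRY1 and CRY2 were not called. In a fit of only genes with a mean of at least 5 CPM, 53.8% were called, and 3035 of 11234 were called higher. In that fit 8 of the 10 clock genes were called higher.

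NR1D2 rose from 62.8, 64.3 and 65.6 CPM in vehicle to 122.5, 115.8 and 124.7 CPM with GNF-7, a log2 change of 0.91 (SE 0.045, edgeR adjusted p 2.91e-26). NR1D1 rose from 20.9, 21.7 and 20.4 CPM to 35.0, 36.2 and 36.7 CPM (0.78, SE 0.069, edgeR adjusted p 1.08e-14). Both REV-ERB genes had every GNF-7 library above every vehicle library, for which no share over all genes is given. THRA, on the strand opposite NR1D1, had overlapping ranges at 6 h and was not called (0.16, edgeR adjusted p 0.0612).

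DBP rose from 7.22, 8.40 and 6.69 CPM to 13.52, 13.99 and 13.40 CPM (0.87, SE 0.104), while SPHK2 on the other strand was not called (-0.08). TEF rose from 10.99, 11.08 and 11.90 CPM to 16.4, 16.1 and 14.4 CPM (0.46, SE 0.088). At 6 h with GNF-7, DBP and TEF overlapped the range of vehicle libraries at 24 h, and PER3 did not reach it.

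PER3 rose from 14.1, 14.6 and 13.1 CPM to 19.1, 22.8 and 21.4 CPM (0.60, SE 0.076), and PER1 from 9.30, 10.7 and 9.19 CPM to 13.4, 14.7 and 15.8 CPM (0.59, SE 0.110). These 3 libraries were the highest of the 15 for PER1. PER2 was at 7.64 to 8.38 CPM in vehicle and 9.04 to 9.39 CPM with GNF-7. The PER2 ranges were apart but the log2 change of 0.20 (SE 0.108) was not called (edgeR adjusted p 0.142), except with genes kept from a mean of 5 CPM up (0.25).

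BHLHE40, which also had its highest values of all groups here, rose from 75.0, 80.9 and 79.0 CPM to 96.8, 92.2 and 98.3 CPM (0.29, SE 0.046). The cryptochromes did not pass the test. CRY1 was at 15.4 to 18.2 CPM in vehicle and 17.0 to 18.7 CPM with GNF-7 (0.10, SE 0.085). CRY2 was at 21.1 to 21.8 CPM and 17.0 to 20.7 CPM (-0.17, SE 0.077, edgeR adjusted p 0.073). Its GNF-7 libraries were all below its vehicle libraries, but it was called lower only without GNF-7 6 h replicate 2 (-0.22).

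After 24 h of GNF-7, against vehicle at 24 h, NR1D1, NR1D2, DBP, PER3, PER2, TEF and BHLHE40 were higher, and again no clock gene was called lower. This was 7 of 10, beside 29.3% of all genes called higher, 29.7% lower and 58.9% in either direction. The median was 0.27 over the 10 genes and 0.04 over all genes. In a fit of only genes with a mean of at least 5 CPM, 72.5% were called, and 4154 of 11234 were called higher. Of the 10 genes, 6 were called higher at both times, beside 13.0% of all genes, and the overlap was not tested. PER1 was called at 6 h and not at 24 h. PER2 was called at 24 h and not at 6 h, but the difference between its effects was not called (0.12, SE 0.156, edgeR adjusted p 0.616).

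NR1D1 rose from 21.7, 22.1 and 20.2 CPM to 32.5, 38.8 and 34.1 CPM (0.72, SE 0.070, edgeR adjusted p 6.37e-14). At this time THRA on the other strand also rose, from 22.4, 23.8 and 22.5 CPM to 38.4, 37.8 and 40.8 CPM (0.77, SE 0.067), and its part in the NR1D1 value was not tested. NR1D2 rose from 78.9, 82.6 and 74.9 CPM to 131.4, 122.4 and 124.3 CPM (0.68, SE 0.044, edgeR adjusted p 5.38e-21). The gene opposite NR1D2, NKIRAS1, shares no exon base with it.

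PER3 reached its highest level of the study, with 37.4, 37.1 and 36.2 CPM against 29.3, 28.4 and 26.7 CPM in vehicle (0.39, SE 0.068). DBP did likewise, with 17.6, 17.7 and 17.4 CPM against 14.6, 11.6 and 13.4 CPM (0.41, SE 0.096), and SPHK2 on its other strand was lower (-0.26). TEF was at 19.1, 19.8 and 19.3 CPM against 18.3, 14.8 and 16.6 CPM (0.22, SE 0.084, edgeR adjusted p 0.0182). The TEF call was lost without a filter (0.20) and on leaving out library 2 of 24 h vehicle (0.14) or of 24 h GNF-7 (0.21).

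PER2 was higher, at 9.15, 8.67 and 8.13 CPM against 7.59, 7.16 and 5.92 CPM (0.32, SE 0.112, edgeR adjusted p 0.0107). Leaving out vehicle library 3, the lowest of the group, ended that call (0.23, edgeR adjusted p 0.11), as did leaving out GNF-7 library 1 (0.28, edgeR adjusted p 0.0501). BHLHE40 was higher by a small amount, from 51.8 to 54.9 CPM in vehicle and 57.98 to 60.03 CPM with GNF-7 (0.16, SE 0.048). PER1 ranged from 7.40 to 10.99 CPM in vehicle and 9.19 to 11.6 CPM with GNF-7 (0.14, SE 0.115), and the spread of its vehicle libraries was the widest of the 10 genes at that time, with a coefficient of variation of 19.4%. CRY1 (-0.01) and CRY2 (-0.06) were not called. The CRY2 ranges were nonetheless apart, with GNF-7 libraries at 21.31 to 22.04 CPM below vehicle libraries at 22.14 to 23.03 CPM.

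The change in the GNF-7 effect between the times was tested directly as an interaction. It was called for 3 of the 10 genes, all with a smaller value at 24 h, which is near the 30.8% of all genes called, 18.0% with a lower and 12.8% with a higher value at 24 h. These genes were DBP (-0.46, SE 0.142, edgeR adjusted p 0.00899), PER1 (-0.45, SE 0.160, edgeR adjusted p 0.0251) and NR1D2 (-0.24, SE 0.063, edgeR adjusted p 0.00214). In a fit of only genes with a mean of at least 5 CPM, 45.6% were called, and still 3 of the 10 clock genes. The PER1 call was lost in 6 of the fits that left out 1 library, with values from -0.42 to -0.31, the latter without vehicle 24 h replicate 3. PER3 (-0.21) and TEF (-0.24) were not called, but PER3 was without GNF-7 6 h replicate 1 (-0.28) and TEF without vehicle 24 h replicate 2 (-0.32). For NR1D1 the difference was -0.06 (SE 0.098), a value within its SE.

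Within the drug, libraries at 24 h and 6 h of GNF-7 differed in 7 of the 10 genes, 4 higher and 3 lower, where 47.8% of all genes were called, 23.1% higher and 24.7% lower. In a fit of only genes with a mean of at least 5 CPM, 64.3% were called, and 8 of the 10 clock genes. With total counts 34.3% of the calls among all genes in place of 48.3% were higher. This comparison shares the GNF-7 libraries with those above. PER3 rose from 19.1, 22.8 and 21.4 CPM to 37.4, 37.1 and 36.2 CPM (0.81, SE 0.069), and DBP (0.37, SE 0.096) and TEF (0.31, SE 0.084) rose by less. BHLHE40 fell from 96.8, 92.2 and 98.3 CPM to 57.98, 59.89 and 60.03 CPM (-0.69, SE 0.046), PER1 fell by 0.53 (SE 0.110) and CRY1 by 0.37 (SE 0.087) on the log2 scale. CRY2 was called higher (0.19, edgeR adjusted p 0.0357), a call lost under 6 of the other settings, such as DESeq2 (0.17) and total counts (0.10), and without GNF-7 24 h replicate 1 (0.18) or 3 (0.19) and GNF-7 6 h replicate 1 (0.20) or 3 (0.11). NR1D1 and NR1D2 were not called (-0.03 and 0.06), although NR1D2 was with genes kept from a mean of 5 CPM up (0.11).

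Ordered by level, the groups fell into a few patterns. For PER2 and CRY1 the cycling group was apart from and above the 4 senescent groups, which ranged from 5.92 to 9.39 CPM for PER2 and from 12.3 to 18.7 CPM for CRY1. For NR1D1 the order was cycling, then both vehicle groups, which overlapped, then both GNF-7 groups, which overlapped. NR1D2 had the same upper pair, but its lowest group was senescent vehicle at 6 h and cycling cells were between vehicle and GNF-7. For BHLHE40 all 5 groups were apart, from cycling cells through vehicle 24 h, GNF-7 24 h and vehicle 6 h to GNF-7 6 h. PER3 had only vehicle 24 h and cycling cells overlapping, and DBP only vehicle 24 h and GNF-7 6 h.

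The range between the lowest and highest group mean was widest for DBP, at 1.63 on the log2 scale, then NR1D1 at 1.48 and PER3 at 1.41, and narrowest for TEF at 0.77. Among 11217 genes with a symbol and a mean of at least 5 CPM, 18.4% had a range at least as wide as that of NR1D1 and 51.6% one at least as wide as that of TEF. For those 3 widest genes, the most similar genes were sought by the root mean square difference of centred log2 group means over the 5 groups. TEF was the third most similar of 11216 genes to PER3 (0.24), and CAMK2N2 was the nearest (0.19). The other clock genes were further from PER3, at ranks from 269 (NR1D2) to 9668 (BHLHE40). The genes nearest to NR1D1 were TRIM35 (0.05), NNMT (0.06) and FAM86B3P (0.06), the last a pseudogene of a family with near-identical copies and so uncertain. The nearest clock gene to NR1D1 was DBP, at rank 546, and the furthest was CRY1, at rank 8849. ZNF222, SBF2-AS1 and ADIRF-AS1 were nearest to DBP (0.17 to 0.18), and both antisense genes are uncertain without the strand setting. The nearest clock gene to DBP was NR1D1, at rank 179, and the furthest was CRY1, at rank 9246.

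The partners of these genes in the core loops were taken as a list of 12, of which 10 passed the filter. In senescent against cycling cells 4 rose and 3 fell, with a median of 0.39, where 70.0% of all genes were called, 35.6% higher and 34.4% lower. RORA, the activator that opposes REV-ERB at shared sites, rose most (1.72, SE 0.128), followed by the BHLHE40 paralog BHLHE41 (1.18), the D-box repressor NFIL3 (0.95) and BMAL1 (0.73). TIMELESS (-1.97), a replication fork protein with a debated clock role in mammals, BMAL2 (-1.83) and CLOCK (-0.44) fell. NPAS2, the CLOCK paralog, was at 122.0 ± 5.12 CPM in cycling and 125.6 ± 1.61 CPM in senescent cells and was not called (0.04).

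**Figure D3:**
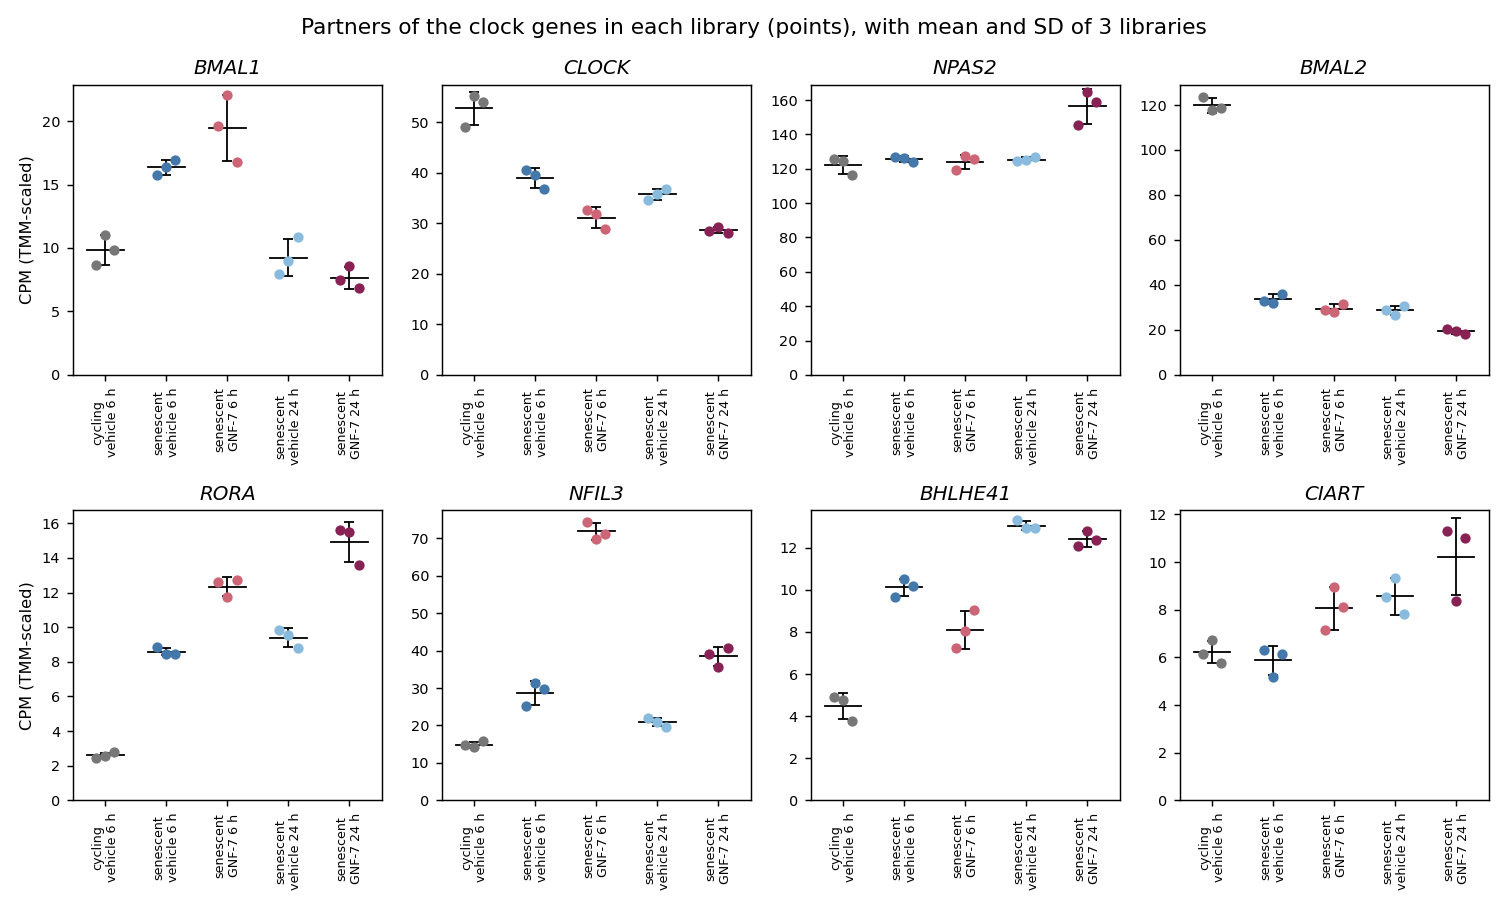
Each panel shows 1 partner gene, with CPM on the y axis and the 5 groups on the x axis, points for libraries and lines and bars for mean and SD of 3. BMAL1 is higher at 6 h than at 24 h in senescent cells, and NFIL3 is highest with GNF-7 at 6 h.

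Between vehicle libraries at 24 h and 6 h, 2 of the 10 partners tested were higher (CIART, 0.54, and BHLHE41, 0.37) and 3 lower (BMAL1, NFIL3 and BMAL2), where 18.5% of all genes were called. BMAL1, whose gene REV-ERB proteins repress, fell from 15.8, 16.4 and 17.0 CPM to 7.94, 8.96 and 10.8 CPM, a log2 change of -0.83 (SE 0.108, edgeR adjusted p 2.41e-08). Its 24 h libraries overlapped the cycling range of 8.65 to 11.05 CPM. NFIL3 fell from 25.2, 31.3 and 29.7 CPM to 21.9, 20.9 and 19.7 CPM (-0.46, SE 0.070). BMAL1 and NFIL3 moved opposite to PER3, DBP, TEF and NR1D2 in this comparison. They moved in the same direction as BHLHE40 (-0.56) and CRY1 (-0.27), and NR1D1 was not called (0.02).

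With GNF-7 at 6 h, 4 partners rose and 4 fell, and the same numbers were found at 24 h, where 39.3% and 58.9% of all genes were called. NFIL3 rose to 74.4, 69.9 and 71.2 CPM at 6 h (1.32, SE 0.064) and to 39.0, 35.6 and 40.7 CPM at 24 h (0.88, SE 0.069). Thus the repressor of D-box sites rose in the same libraries as the activators DBP and TEF. RORA rose at both times (0.52 and 0.66) and CLOCK fell at both (-0.32 for each). BMAL1 was called higher at 6 h (0.25, edgeR adjusted p 0.0414) and lower at 24 h (-0.27, edgeR adjusted p 0.0435). Its ranges overlapped in both, and the difference of the effects was called (-0.52, edgeR adjusted p 0.00659). NR1D1 and NR1D2, in contrast, were called higher at both times. HLF, the third activator of the DBP family, was called higher at 24 h (1.44) but did not exceed 0.639 CPM in any group mean. These partner genes, like the lists that follow, were chosen with earlier results known.

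Of 19 kinases, phosphatases, ubiquitin pathway genes and corepressors that act on clock proteins, 18 were tested. In senescence 14 fell and 3 rose (median -0.40), beside 34.4% of all genes called lower and 35.6% higher, the largest being the corepressor-associated SFPQ (-1.04) and NONO (-0.84) and the deubiquitinase gene USP2 (1.17), which did not exceed 0.911 CPM in any group mean. With GNF-7, 6 rose and 5 fell at 6 h (39.3% of all genes called), among them CSNK1A1, a casein kinase 1 gene (0.35), the deacetylase SIRT1 (0.32) and SFPQ (-0.43). At 24 h 2 rose and 6 fell (58.9% of all genes called), with SFPQ (-0.83), PRKAA1, a catalytic subunit of AMPK (-0.49), and NONO (-0.42) changing most. In vehicle over time none was higher and 3 were lower (18.5% of all genes called, 9.29% lower), CSNK1A1 (-0.25), NCOR1 (-0.14) and SFPQ (-0.13).

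The last list held 9 genes often found under clock control, all of which were tested. With GNF-7, 4 rose and 3 fell at each time, where 39.3% of all genes were called at 6 h and 58.9% at 24 h. At 6 h TSC22D3, a glucocorticoid-induced leucine zipper gene, rose by 2.27 (SE 0.068), KLF9 by 1.52 (SE 0.058) and NAMPT, the rate-limiting enzyme of NAD salvage, by 1.44 (SE 0.038). At 24 h NAMPT rose by 1.61 and TSC22D3 by 1.402. Between 24 h and 6 h of GNF-7, 8 of the 9 fell, among them NOCT (-1.06) and KLF9 (-0.81), and none rose, where 24.7% of all genes were called lower. In senescence 6 rose and 1 fell (35.6% of all genes called higher and 34.4% lower), with PPARGC1A (1.38), KLF9 (1.16) and WEE1, the G2 checkpoint kinase (-1.09), changing most. In vehicle over time 5 fell, beside 9.29% of all genes, of which NOCT (-0.35), NAMPT (-0.32) and KLF10 (-0.32) changed most.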

How the data were processed

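RNA of 15 HT-1080 libraries was measured by sequencing with a stranded mRNA kit, per the labels' protocols. The authors deposited 1 table of raw counts per Ensembl gene, without normalization. The submitters' processing notes name bcl2fastq 2.20.0.422, STAR 2.7.9a, featureCounts 1.5.1 and GRCh38, while the annotation release and the strand setting are not given in the sources used here. Of 60673 rows, 3 were left out because 1 entry was broken over lines. Gene names matched 99.55% of identifiers. Coordinates, exon lengths and overlaps come from GENCODE release 29, and promoters from RefSeq.

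Libraries were grouped by title and time. edgeR 4.0.16 (R 4.3.3) kept 18563 genes (filterByExpr) and scaled by TMM, and 1 quasi-likelihood fit with a term per group and no replicate block gave 6 contrasts. P-values were adjusted over all genes by the Benjamini-Hochberg method, with calls at an adjusted p under 0.05. With 3 libraries a group, p-values set each change against a spread between libraries, estimated over all 15 and with information shared across genes. On simulated counts for GNF-7 against vehicle at 6 h, with 18563 genes and 200 changed 2-fold, edgeR recovered 76% of the changed genes with 7 false calls, and 130 of 130 at 5 CPM or more. In the data 7286 genes were called in that comparison, and the largest clock gene change was 1.88-fold (NR1D2). The simulated rates therefore do not carry over to the calls reported here. In each of the 15 pairs of libraries within a group, counts differed by more than sampling noise. The chi-square per degree of freedom was 3.02 to 12.7, and no p-value was computed. Pairs from different groups were not compared.

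The alternatives were DESeq2 1.42.0, limma voom 3.58.1, other scalings and filters, only the groups compared, a replicate block and leaving out each library. The members and lists were chosen with earlier results of these data known. Each clock gene and any core partner could be named. Of the 2 other lists, those named in a contrast were the 3 called genes with the largest change. Some genes that this rule would name are not reported here.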

Additional observations from a re-analysis of the deposited data

Results flagged for a closer look

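The response to GNF-7 was unequal at the 2 times for 3 clock genes, by the interaction term of the edgeR fit, which tests the difference itself. This is near the share over all genes, of which 30.8% were called, so the count says nothing particular about the clock genes. In a fit of only genes with a mean of at least 5 CPM, the share was 45.6%. For DBP the log2 effect was 0.87 at 6 h and 0.41 at 24 h, a difference of -0.459 (SE 0.142, edgeR adjusted p 0.00899). For PER1 it was 0.59 and 0.14, a difference of -0.448 (SE 0.160, edgeR adjusted p 0.0251), and this call was lost in 6 of the 15 fits that left out 1 library. For NR1D2 it was 0.91 and 0.68, a difference of -0.237 (SE 0.063, edgeR adjusted p 0.00214). With 3 libraries a group, no test for a single outlying library was made.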

How the results depend on the processing

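Of 1440 values of the 10 genes under the alternatives, 1392 kept direction and call, 25 lost the call, 9 gained it and 14 changed sign. The values that changed sign belonged to log2 fold changes that were not called. For GNF-7 at 24 h, keeping only genes with a mean of 5 CPM or more gave 0.0437 for CRY2 and 0.0949 for CRY1, and total counts gave 0.0229 for CRY1. Leaving out 1 library at a time gave values from -0.00729 to 0.274 for PER1 and from -0.0758 to 0.0839 for CRY1, the latter above 0 without library 2 of either 24 h group or of 6 h GNF-7. For vehicle over time, total counts gave -0.0335 for CRY2 and -0.0873 for NR1D1, and leaving out 1 library gave -0.217 to 0.0646 for PER1 and -0.00112 to 0.0602 for NR1D1. For GNF-7 over time, the 5 CPM minimum gave 0.0216 for NR1D1, total counts gave -0.0363 for NR1D2, and leaving out 1 library gave -0.111 to 0.0205 for NR1D1. The cause was not tested. Leaving out 1 library gave 9 clock genes called in senescence, 7 to 8 with GNF-7 at 6 h, 6 to 7 at 24 h, 5 to 6 in vehicle over time, 6 to 7 in GNF-7 over time and 2 to 4 in the interaction. With the replicate number as a block these counts were 9, 7, 7, 6, 7 and 3, and over all genes 13032, 7481, 11031, 3711, 9018 and 5921, against 12999, 7286, 10940, 3443, 8870 and 5723 without it. Libraries of the same number in different groups had correlations of -0.14 to 0.25 (median 0.015). Those of different numbers had -0.23 to 0.17 (median -0.015), and 8 of 15 correlated best with their own number. These values do not settle whether equal numbers are pairs. The labels do not say that equal numbers share a culture or day, so the numbers were not taken as pairs. Depth limits DBP, PER1 and PER2 most, with 150, 215 and 153 counts in their lowest libraries.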

Other observations

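Pairs of clock genes were compared by the root mean square difference of their centred log2 group means over the 5 groups, as a description. The most alike were PER2 and CRY1 (0.14), both highest in cycling cells. PER1 and BHLHE40 (0.21) followed, both highest with GNF-7 at 6 h, and then NR1D2 and TEF (0.23). The least alike were CRY1 and DBP (0.95). No values for pairs among all genes are given, so how usual these differences are was not tested. NR1D1 and NR1D2 encode paralogous repressors, and both were higher with GNF-7 at each time, but cycling cells had the lowest NR1D1 group mean (12.9 ± 0.632 CPM) and a middle rank for NR1D2 (100.7 ± 3.58 CPM).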
